A study of Mus musculus with 2 samples.

Results

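The Hedgehog genes described here are 9: the ligands *Shh* and *Ihh*, the receptor *Ptch1*, the ligand-binding inhibitor *Hhip*, the coreceptor *Boc*, the signal transducer *Smo*, and the transcription factors *Gli1*, *Gli2* and *Gli3*. They were taken by name from the 31053 genes counted, and each had 1 entry in the gene list of both libraries. The libraries came from dissociated mouse eye cups at e13.5, with cornea, lens and optic nerve removed, and hold 3′ transcript counts of single cells. The control library pooled 3 Myrf fl/fl samples and the mutant library pooled 3 Rx>cre Myrf fl/fl samples, so both carry the homozygous floxed allele of *Myrf*, a membrane-bound transcription factor of the retinal pigment epithelium (RPE), and the mutant also carries Cre driven by an *Rx* transgene, active in the early eye field that forms retina and RPE. Mesenchyme, vessels and blood lie outside that lineage. With 1 library per genotype there was no replicate check, so differences were not tested and carry no p-value, and genotype cannot be told apart from library.

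In Hedgehog signalling, a secreted ligand binds PTCH1 and lifts its block on SMO at the primary cilium, and GLI2 and GLI3 then switch from repressors to activators of transcription. *Gli1*, *Ptch1* and *Hhip* are themselves induced by the pathway and serve as its readout, and PTCH1 and HHIP in turn bind and limit the ligand. In the developing mouse eye, retinal ganglion cells are a known source of SHH for retinal progenitors, and vascular cells near the RPE are a known source of IHH for the periocular mesenchyme and RPE.

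Of 9 members, 6 had a promoter sequence in the RefSeq tables used (GRCm38.p6), and *Shh*, *Gli1* and *Boc* did not. The 250 bases before the annotated start are shown, each read on the strand of its gene, for the ligand detected (*Ihh*), for the pathway-induced inhibitors *Ptch1* and *Hhip*, and for *Gli2*, whose window alone among the 6 held the GLI core motif.

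Ihh: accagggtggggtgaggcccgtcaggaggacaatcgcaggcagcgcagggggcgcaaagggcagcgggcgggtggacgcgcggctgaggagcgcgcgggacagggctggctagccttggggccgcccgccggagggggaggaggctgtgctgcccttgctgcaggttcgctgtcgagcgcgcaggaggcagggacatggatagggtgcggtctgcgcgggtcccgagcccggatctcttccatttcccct
Ptch1: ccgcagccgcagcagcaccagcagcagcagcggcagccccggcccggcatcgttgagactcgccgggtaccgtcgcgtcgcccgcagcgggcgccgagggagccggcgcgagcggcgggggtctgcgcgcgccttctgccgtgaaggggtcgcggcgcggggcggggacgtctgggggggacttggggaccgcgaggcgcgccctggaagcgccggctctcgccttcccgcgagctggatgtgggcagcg
Hhip: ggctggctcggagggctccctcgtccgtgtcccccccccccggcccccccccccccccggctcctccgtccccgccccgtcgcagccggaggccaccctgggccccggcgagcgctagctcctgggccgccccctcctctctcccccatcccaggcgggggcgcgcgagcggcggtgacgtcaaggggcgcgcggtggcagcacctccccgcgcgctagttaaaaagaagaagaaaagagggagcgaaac
Gli2: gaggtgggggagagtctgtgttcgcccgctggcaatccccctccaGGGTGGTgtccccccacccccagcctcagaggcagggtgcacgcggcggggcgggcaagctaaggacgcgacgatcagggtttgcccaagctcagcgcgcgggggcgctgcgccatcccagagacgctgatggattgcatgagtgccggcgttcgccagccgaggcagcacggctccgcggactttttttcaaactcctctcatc

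The windows lie at chr1:74951673-74951922 for *Ihh*, chr13:63565736-63565985 for *Ptch1*, chr8:80058009-80058258 for *Hhip* and chr1:119053620-119053869 for *Gli2*, all on the minus strand, and no annotated exon overlaps any of the 4. The annotated *Ptch1* gene reaches to position 63573598 on chromosome 13, beyond this window, so other starts of *Ptch1* were not covered. Both strands of 300 bases, from 250 before to 50 after each start, were searched for the GLI consensus GACCACCCA and for its core ACCACCC, which every full match contains. The full motif was in 83 of 32851 promoters (0.253%) and in none of the 6 members, and the core was in 1514 promoters (4.61%) and in *Gli2*, where capitals mark it on the opposite strand as GGGTGGT, first base 205 before the start. A match is a description of letters in this window and says nothing of binding.

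After filtering, 5468 control and 6300 mutant cells with 61538465 and 73281142 unique molecular identifiers (UMIs, single captured transcripts) remained, and 72 barcodes occurred in both libraries. The cells formed 29 clusters, of which 24 were named from markers into 14 classes and 5, holding 1406 control and 1269 mutant cells, were left unnamed. No optic stalk, ciliary margin, lens or pericyte class was found, and the RPE-like class lacked UMIs of *Rpe65* and *Rgr* in both libraries. *Myrf*, the targeted gene, was at 73.8 CPM (UMIs of a gene scaled to one common total per class) in RPE-like cells of the control library and 20.1 CPM in those of the mutant library, and the log2 ratio of mutant over control was -1.84 (-2.49 to -1.31). In the mesenchyme it was at 2.62 and 2.46 CPM. All intervals are at a level of 95%, exact Poisson for a level, exact conditional binomial for a ratio and Clopper-Pearson for a share, and cover counting error only. Haemoglobin and other red blood cell markers were higher in the mutant library in each class compared, 588 against 1858 CPM summed over 9 genes in the mesenchyme, 364 against 1121 CPM in endothelial-like cells, 972 against 1500 CPM in RPE-like cells and 294 against 792 CPM in progenitors. Their part in the differences below was not tested.

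UMIs of the ligand *Ihh* and of the pathway-induced genes were mostly counted in different cell classes. Position in the tissue was not measured. Endothelial-like cells held 90.8% of all *Ihh* UMIs, 326 of 359. The periocular mesenchyme-like class held 64.2% of *Ptch1*, 83.5% of *Gli1*, 72.1% of *Hhip* and 74.6% of *Boc* UMIs, and RPE-like cells a further 4.92%, 5.52% and 19.4% of *Ptch1*, *Gli1* and *Hhip*. The transducer and the bifunctional factors were spread more widely, with 47.9% of *Smo*, 50.2% of *Gli2* and 54.5% of *Gli3* UMIs in mesenchyme and 29.0%, 26.8% and 24.1% in retinal progenitors. These shares also follow the size of a class, with 1606 control and 2074 mutant cells in the mesenchyme, 866 and 957 in the progenitors, 257 and 154 in the RPE-like class and 144 and 149 in the endothelial-like class.

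**Figure D1:**
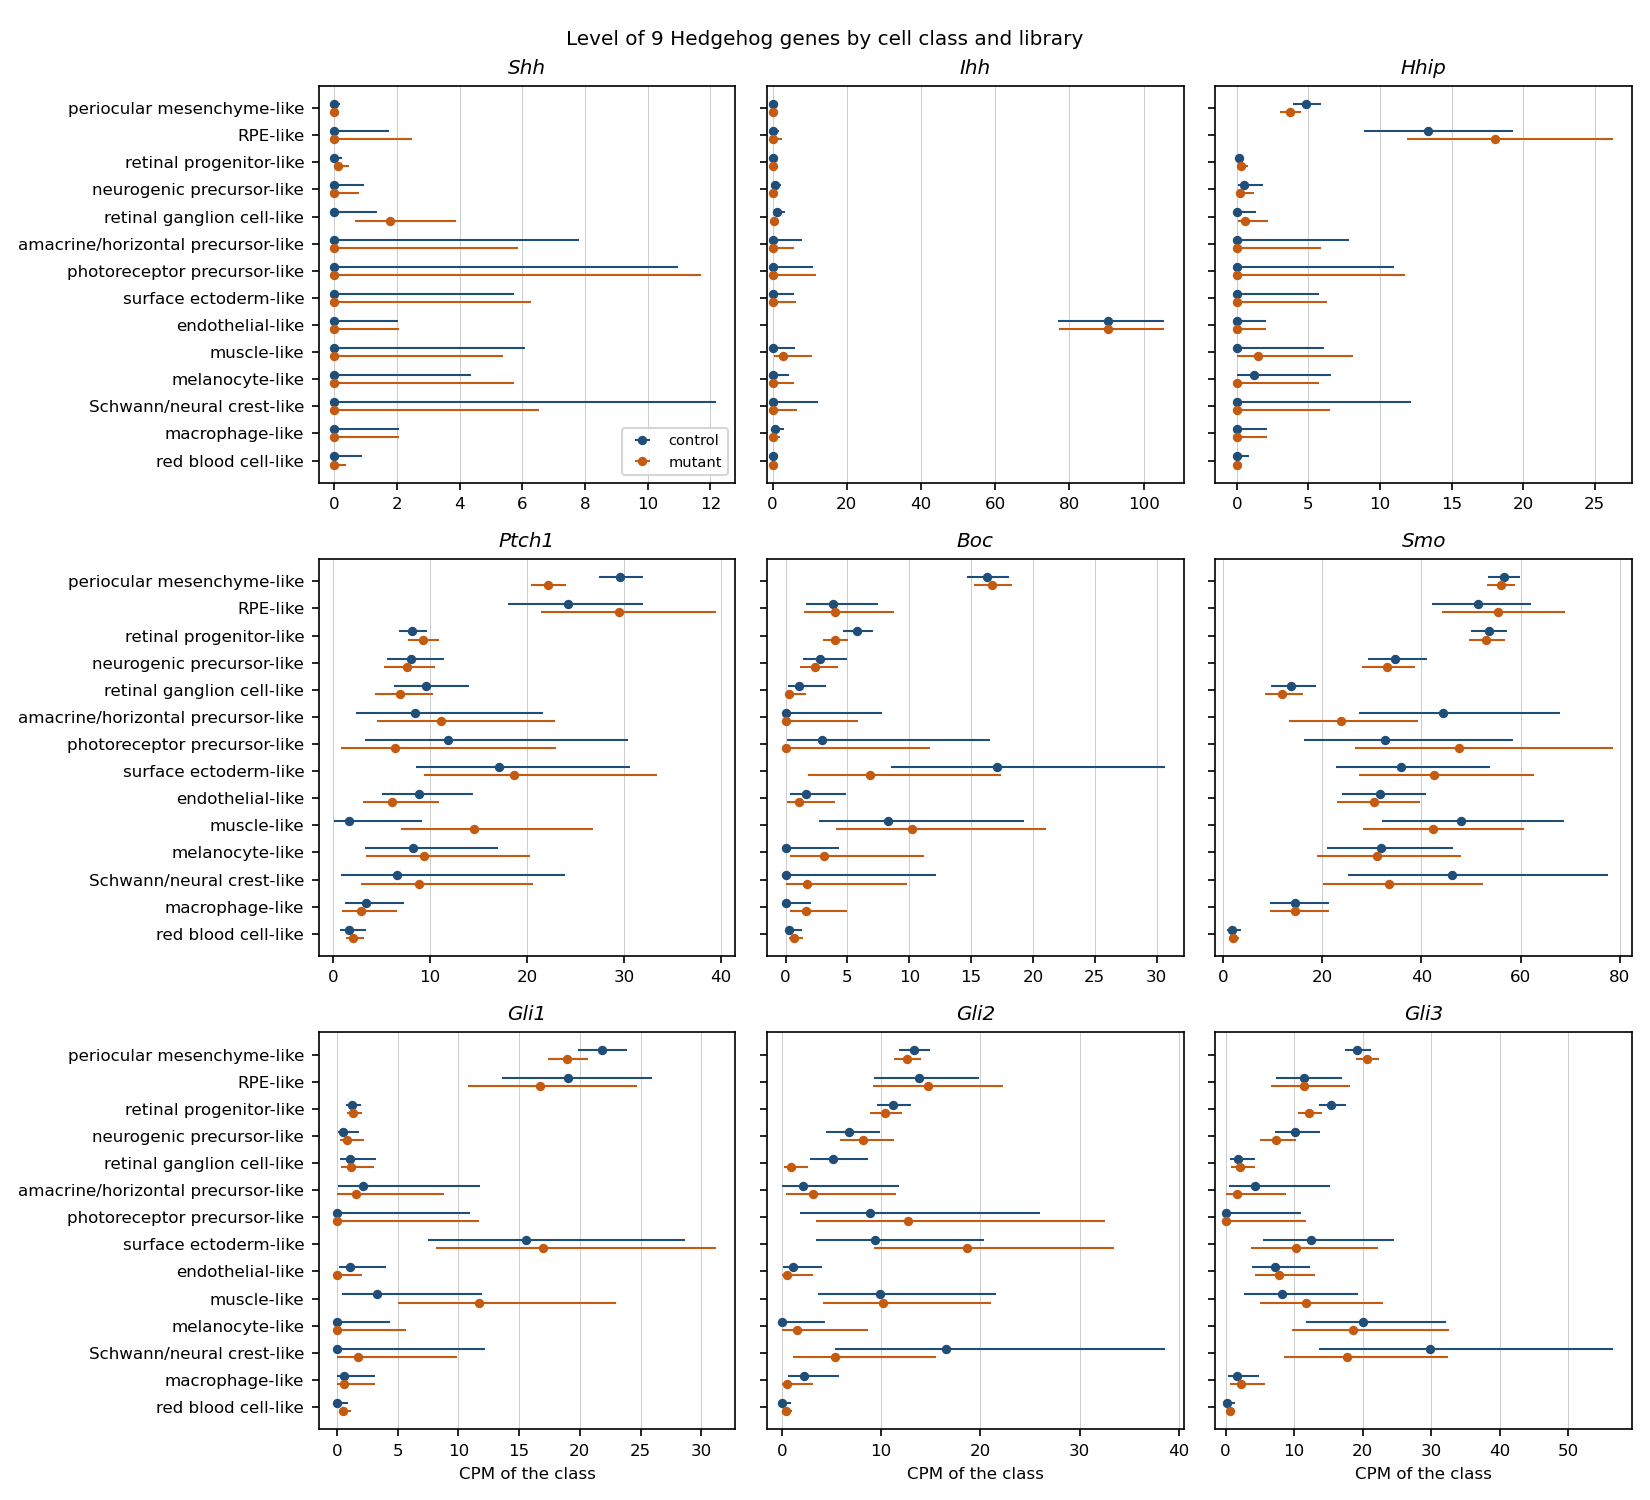
Level of each of the 9 Hedgehog genes (x axis, CPM of the class) in 14 marker-defined classes (y axis), control in blue and mutant in orange, with exact Poisson 95% intervals. *Ihh* stands at 90.4 and 90.5 CPM in endothelial-like cells, and *Smo* is spread over most classes. *Gli1* is high in mesenchyme-like, RPE-like and surface ectoderm-like cells, and *Hhip* in mesenchyme-like and RPE-like cells. Scales differ between panels.

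*Ihh*, at 1:74945315-74951672 on the minus strand of GRCm38, was the ligand with a clear source. Endothelial-like cells held 163 *Ihh* UMIs in each library, 90.4 CPM (77.0 to 105) in control and 90.5 CPM (77.2 to 106) in mutant. The log2 ratio was 0.002 (-0.32 to 0.32), so the intervals leave room for a change of either sign up to that size. In no other class did the interval reach that level, and the counts there were small, with 3 control and 6 mutant UMIs in mesenchyme, 3 and 2 in progenitors, 3 and 1 in ganglion cell-like cells and 3 and 1 in neurogenic precursors. RPE-like cells had no *Ihh* UMI in either library. The floor of 3 UMIs was 1.43 and 2.01 CPM there, and the upper limits of the exact interval are higher.

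Within the endothelial-like class *Ihh* was uneven from cell to cell. A UMI was found in 51 of 144 control cells (35.4%) and 46 of 149 mutant cells (30.9%), and single cells carried up to 13 and 14 UMIs. Deep and shallow cells were mixed in this class, so each cell was also thinned to 3000 UMIs, which left out 47 cells per library. The share was then 22.7% in control (14.8 to 32.3, 22 of 97 cells) and 20.6% in mutant (13.2 to 29.7, 21 of 102 cells), while macrophage-like cells, which should lack the gene, gave 0 of 77 and 0 of 81. The intervals of the libraries overlapped over most of their width. The cells with *Ihh* were deeper, with a median of 20739 UMIs in 97 cells against 3774 UMIs in the 196 without.

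Endothelial identity genes were present on both sides of this split. *Cdh5*, the adhesion molecule of endothelial junctions, was at 456 CPM in cells with an *Ihh* UMI and 515 CPM in those without, and *Pecam1* was at 145 and 185 CPM. *Plvap*, a component of fenestrated endothelium, was at 476 and 397 CPM, and *Egfl7* at 1611 and 1289 CPM. These values are sums over both libraries of the same cells that defined the split, so they are a description. The equality of the libraries did not hold in every subset of cells split by sex-linked UMIs. In cells with UMIs of *Xist* and none of Y-linked genes, 32 control and 19 mutant cells gave 77 and 12 *Ihh* UMIs, or 119 and 45.1 CPM. The log2 ratio in them was -1.31 (-2.42 to -0.52). Cells with Y-linked UMIs alone, 28 and 40, gave 82.6 and 60.6 CPM, a log2 ratio of -0.45 (-1.04 to 0.15). The 84 and 90 cells that could not be assigned gave 65.7 and 144 CPM, a log2 ratio of 1.11 (0.58 to 1.72). Unassigned cells had no sex-linked UMI or UMIs of both kinds.

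**Figure D2:**
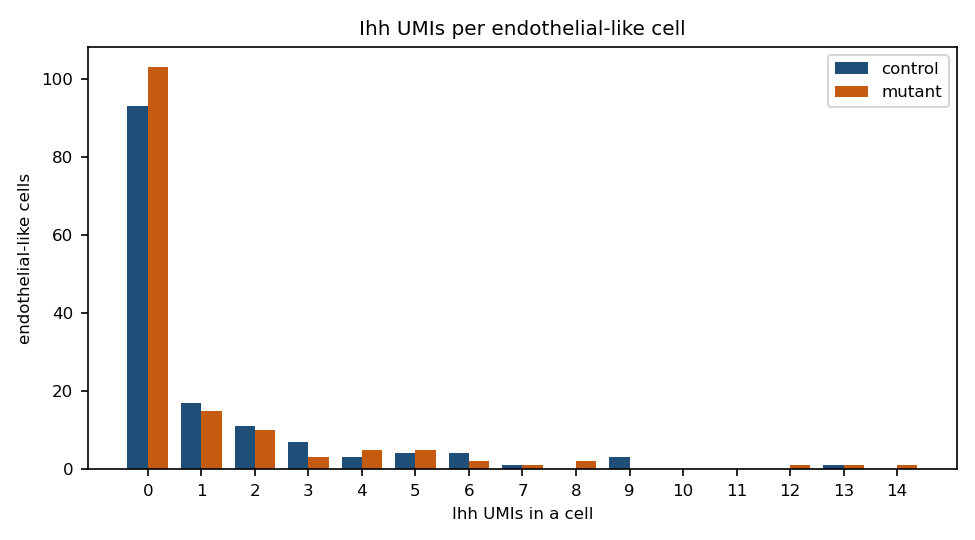
Number of endothelial-like cells (y axis) by *Ihh* UMIs in the cell (x axis, 0 to 14), control in blue and mutant in orange. Most cells of both libraries, 93 and 103, had no UMI, and the remainder reached 13 UMIs in control and 14 in mutant.

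*Shh* was near the limit of detection. All 8 UMIs in kept cells came from the mutant library, in 7 cells. Of these, 6 UMIs lay in 5 of 455 ganglion cell-like cells, 1.79 CPM (0.656 to 3.89), and 2 in progenitors. The 324 control ganglion cell-like cells had 0 UMIs, which allows up to 1.11 CPM at the floor of 3 UMIs, or 1.36 CPM by the exact interval, and the intervals of the libraries overlapped. A difference in *Shh* between the libraries was not detectable at this depth in ganglion cell-like cells. Over all kept cells, the counts of 0 and 8 gave an exact conditional interval of the log2 ratio whose lower bound was 0.52, on UMIs of 7 cells from 1 library per genotype. Of the ganglion cell-like UMIs, 5 were in 1 of the 2 clusters of the class, the one led by *Sncg*, *Nefl* and *Nefm*. The other cluster, of 199 control and 297 mutant cells, had these neurofilament and axonal genes among its highest too. It was led by *Tlx2* and also had *Phox2a* among its highest genes. It was far shallower, with a median of 1766.5 UMIs per cell against 16771, so where *Shh* UMIs were found also follows depth. *Dhh*, the third mammalian ligand, was highest in Schwann or neural crest-like cells, with 10 control and 17 mutant UMIs at 33.04 and 30.04 CPM. Glia of peripheral nerve are its known source.

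*Ptch1*, the receptor and a direct target of the pathway, was lower in mesenchyme-like cells of the mutant library. Its level there was 29.6 CPM (27.4 to 32.0) from 644 UMIs in control and 22.2 CPM (20.4 to 24.0) from 595 UMIs in mutant. The log2 ratio was -0.42 (-0.58 to -0.26), and the intervals of the levels did not overlap. The difference was under the 1.5-fold used to call a gene. Of all 13793 genes with at least 20 UMIs in the mesenchyme, 5.61% were past 1.5-fold in either direction, and none of the 7 members measured there was.

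The mesenchyme-like class joined 7 clusters, and *Ptch1* varied more among them than between libraries. It was highest in the cluster led by *Pgf*, *Cdh10* and *Aldh1a2*, at 65.6 CPM in control and 51.0 CPM in mutant, log2 ratio -0.36 (-0.67 to -0.06). *Aldh1a2* encodes an enzyme of retinoic acid synthesis. The cluster led by *Col9a3*, *Cldn11* and *Asgr1*, with the cartilage regulator *Sox9* among its leading genes, was at 42.7 and 29.0 CPM (-0.55, -0.99 to -0.13). The one led by *Meox1*, *Msc* and *Scx*, the last a tendon factor, was at 20.9 and 13.3 CPM (-0.65, -1.25 to -0.04). The intervals of these 3 ratios lay below 0. The lowest level, 9.78 and 8.36 CPM, was in the cluster led by *Osr2* and *Foxl2*. In the other clusters the proliferating one led by *Depdc1a* and *Mxd3* was at 28.0 and 22.3 CPM, the one led by *Nbl1* at 14.2 and 11.3 CPM, and the one led by *Fmo1* and *Spp1* at 32.0 and 31.5 CPM. The ratio was thus negative in 7 of 7 clusters, with intervals that included 0 outside the 3 named above. In the *Fmo1* cluster it was -0.02 (-0.56 to 0.51). The clusters are parts of the same libraries, so their signs are not independent results. Combined within clusters the ratio was -0.36, against -0.42 over the class.

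**Figure D3:**
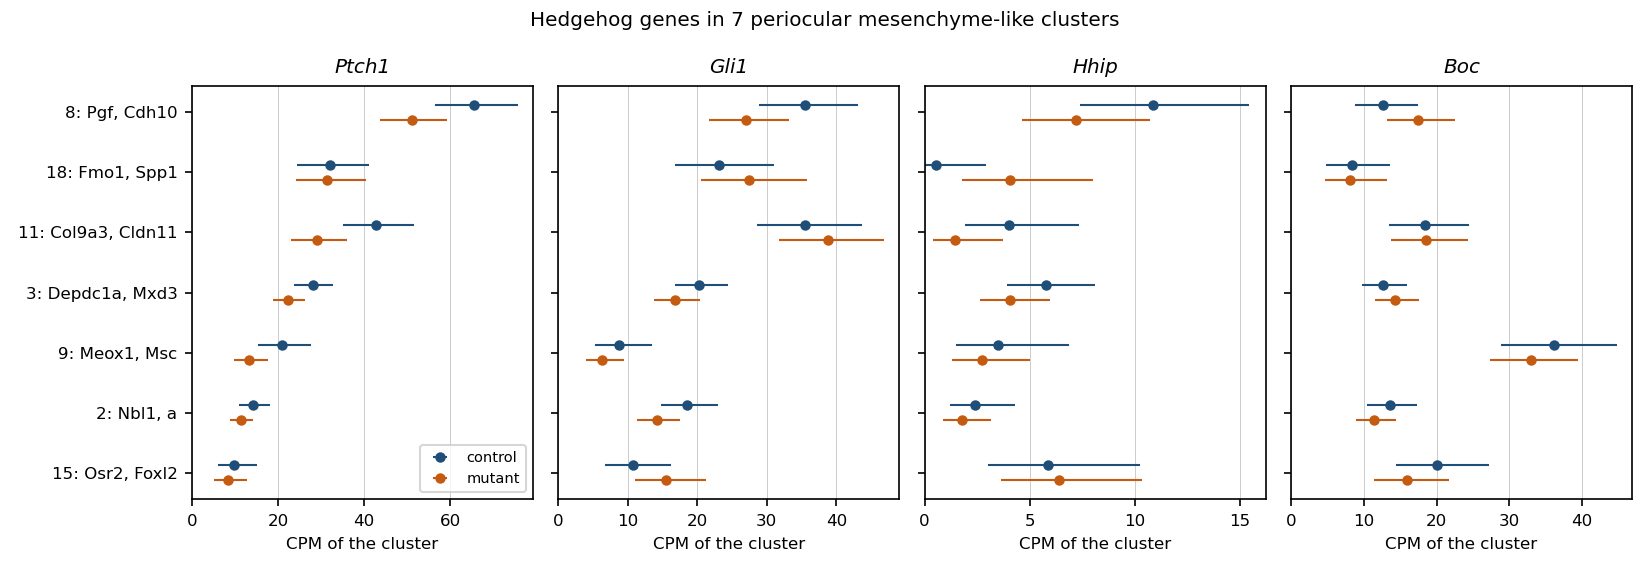
Levels of *Ptch1*, *Gli1*, *Hhip* and *Boc* (x axis, CPM of the cluster) in the 7 clusters of the mesenchyme-like class (y axis, each with its number and leading genes), control in blue and mutant in orange, with exact Poisson 95% intervals. *Ptch1* is lower in the mutant library in all 7 clusters, from 65.6 against 51.0 CPM to 32.0 against 31.5 CPM, whereas *Boc* peaks in another cluster, at 36.2 and 32.9 CPM.

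The share of mesenchyme-like cells with a *Ptch1* UMI was 27.6% in control and 21.6% in mutant, at median depths of 13155 and 12160 UMIs. Thinned to 3000 UMIs it was 8.87% (7.49 to 10.4, 136 of 1534 cells) and 5.98% (4.98 to 7.11, 119 of 1990 cells), against a background in red blood cell-like cells of 0.562% and 0.726%. The gap depended on the depth chosen, with 3.97% and 3.40% at 1500 UMIs and 12.2% and 9.83% at 5000 UMIs. At both of these other depths the intervals overlapped. Cells of both sexes showed the lower level. The log2 ratio was -0.54 (-0.84 to -0.27) in female cells and -0.63 (-0.90 to -0.37) in male cells. In unassigned cells it was -0.18 (-0.54 to 0.21), an interval that includes 0. The libraries differed in sex make-up, with 1964 female and 1138 male cells kept in control and 1559 and 1764 in mutant.

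Outside the mesenchyme *Ptch1* was not lower in the mutant library in every class. In retinal progenitor-like cells it was 8.14 CPM (127 UMIs) in control and 9.22 CPM (142 UMIs) in mutant, log2 ratio 0.18 (-0.18 to 0.54). RPE-like cells had 24.3 CPM (18.1 to 31.9) and 29.4 CPM (21.4 to 39.5), a ratio of 0.28 (-0.34 to 0.89). Both intervals include 0. In the 210 control and 130 mutant RPE-like cells without a UMI of the mesenchyme genes *Twist1*, *Prrx1* or *Foxc1*, *Ptch1* was at 27 and 21.8 CPM, a ratio of -0.29 (-1.10 to 0.44), so the direction in RPE-like cells depended on which cells were taken. Endothelial-like cells held 16 and 11 UMIs, and surface ectoderm-like cells 11 in each library, at 17.1 and 18.7 CPM. In the order of levels, mesenchyme came before RPE in control and after it in mutant, and the neighbours overlapped in both.

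*Hhip*, which encodes a membrane protein that sequesters Hedgehog ligands, was the member with its highest level in the RPE-like class in both libraries. *Ptch1* had its highest level there in the mutant library alone. *Hhip* was at 13.3 CPM (8.85 to 19.3, 28 UMIs) in control and 18.1 CPM (11.9 to 26.3, 27 UMIs) in mutant RPE-like cells, and at 4.83 CPM (105 UMIs) and 3.69 CPM (99 UMIs) in the mesenchyme. The level in RPE-like cells was above that of the mesenchyme class taken as a whole beyond the intervals in both libraries. Between libraries the log2 ratio was 0.44 (-0.38 to 1.26) in RPE-like cells and -0.39 (-0.80 to 0.02) in mesenchyme, neither apart from 0. Progenitors held 2 and 5 *Hhip* UMIs, and endothelial-like, macrophage-like, red blood cell-like and surface ectoderm-like cells held 0.

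Among mesenchyme clusters *Hhip* was at 10.9 and 7.21 CPM in the *Pgf* cluster, its highest. The control interval there (7.39 to 15.4) overlapped that of control RPE-like cells. The mutant interval (4.62 to 10.7) did not overlap that of mutant RPE-like cells. The *Col9a3* cluster was at 3.99 and 1.45 CPM. The *Fmo1* cluster went the other way, with 1 control UMI and 8 mutant UMIs, a log2 ratio of 2.12 (0.05 to 8.42) on 9 UMIs in all. Within clusters the combined ratio was -0.36.

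Because RPE and mesenchyme are neighbours in the eye cup, the RPE-like class was checked for mesenchyme RNA. The 12 mesenchyme markers summed to 248 and 251 CPM in RPE-like cells, a near equal level in both libraries, against 3688 and 3686 CPM in the mesenchyme itself. In the RPE-like cells without *Twist1*, *Prrx1* or *Foxc1* UMIs, *Hhip* was at 14.5 and 16.3 CPM and *Gli1* at 21.4 and 19.1 CPM.

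*Boc*, a coreceptor that presents ligand to PTCH1, was at 16.3 CPM (354 UMIs) in control and 16.7 CPM (449 UMIs) in mutant mesenchyme, log2 ratio 0.04. Its highest cluster there was the *Meox1* cluster, at 36.2 and 32.9 CPM, where *Gli1* was at its lowest, 8.71 and 6.26 CPM. In progenitors *Boc* was lower in the mutant library, 5.77 CPM from 90 UMIs against 3.96 CPM from 61 UMIs, with a log2 ratio of -0.54 (-1.04 to -0.06). Surface ectoderm-like cells held 11 and 4 UMIs. No member was past 1.5-fold in progenitors, where 5.26% of 12642 genes were and 6 members were measured.

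*Smo*, the transducer downstream of PTCH1, was at nearly the same level in both libraries in the largest classes. It was at 56.6 CPM (1231 UMIs) and 56.0 CPM (1503 UMIs) in mesenchyme, log2 ratio -0.02 (-0.13 to 0.09). Progenitors had 53.6 CPM (836 UMIs) and 53.1 CPM (818 UMIs), a ratio of -0.01. In RPE-like cells the levels were 51.4 and 55.5 CPM (0.12, -0.32 to 0.54) and in endothelial-like cells 31.6 and 30.5 CPM. Ganglion cell-like cells were lower, at 13.6 and 11.9 CPM, and macrophage-like cells stood at 14.6 CPM in both libraries. Amacrine or horizontal precursor-like cells held 21 and 15 UMIs, 44.4 and 23.8 CPM, a ratio of -0.87 (-1.96 to 0.13) that is past 1.5-fold with an interval including 0. The levels of mesenchyme, progenitors and RPE-like cells overlapped one another in both libraries.

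**Figure D4:**
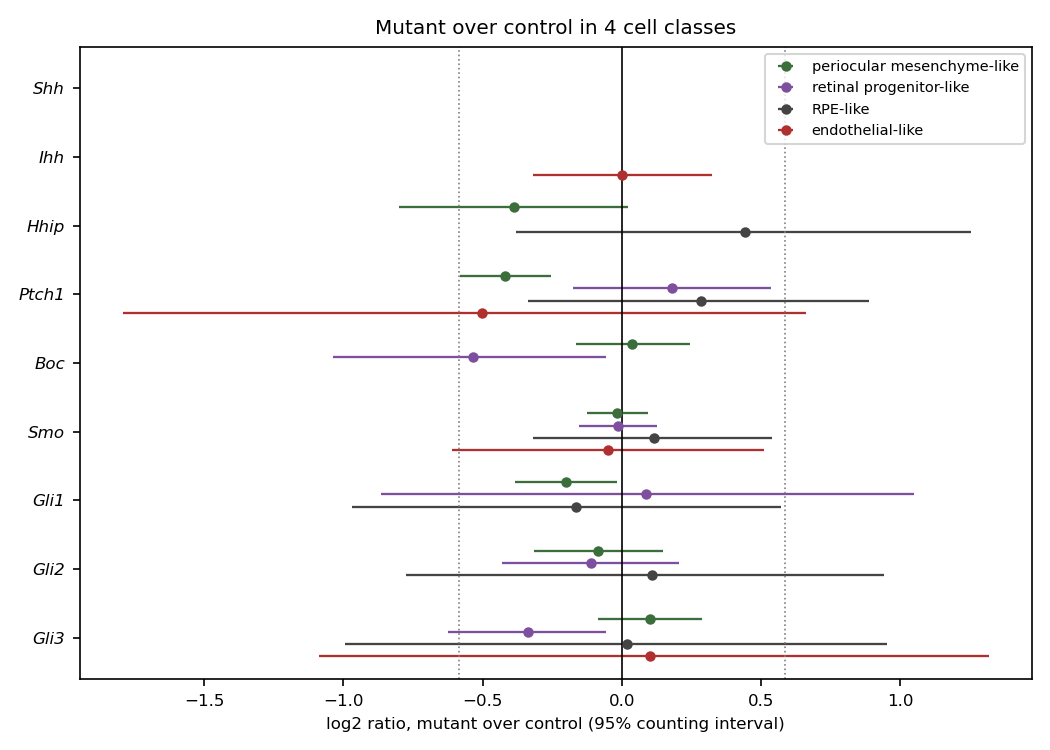
Log2 ratio of mutant over control (x axis) for each Hedgehog gene (y axis) with at least 20 UMIs in the class, in 4 classes by colour, with 95% counting intervals and dotted lines at 1.5-fold lower and higher. *Ptch1* in mesenchyme (-0.42) lies left of 0 with its whole interval, *Smo* in mesenchyme and progenitors lies close to 0 (-0.02 and -0.01), and no point lies past a dotted line.

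*Gli1*, the activator that is itself induced by the pathway, stood at overlapping levels in the mesenchyme, RPE-like and surface ectoderm-like classes. The last of these held 10 UMIs in each library. In mesenchyme it was at 21.8 CPM (19.9 to 23.8, 474 UMIs) in control and 19.0 CPM (17.3 to 20.7, 509 UMIs) in mutant. The log2 ratio of -0.20 (-0.39 to -0.02) became -0.14 when combined within clusters. By cluster the direction was mixed, lower in 4 and higher in 3 of 7. The *Pgf* cluster was at 35.4 and 27.0 CPM, whereas the *Col9a3* cluster was at 35.5 and 38.8 CPM and the *Fmo1* cluster at 23.1 and 27.4 CPM.

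The share of mesenchyme-like cells with a *Gli1* UMI was 24.0% in control and 19.9% in mutant. At 3000 UMIs per cell it was 7.24% (5.99 to 8.65, 111 of 1534 cells) and 4.92% (4.02 to 5.97, 98 of 1990 cells), but at 5000 UMIs 10.5% and 9.67%, so the size of this gap depended on the depth chosen. Red blood cell-like cells gave 0 of 178 and 0 of 413 at 3000 UMIs. RPE-like cells were at 19.0 CPM (40 UMIs) and 16.7 CPM (25 UMIs), log2 ratio -0.17 (-0.97 to 0.57), levels that overlapped those of the mesenchyme. Surface ectoderm-like cells were at 15.6 and 17.0 CPM on 10 UMIs each. Progenitors were far lower, at 1.28 and 1.36 CPM (20 and 21 UMIs), in the same cells that held *Smo*, *Gli2* and *Gli3* in quantity.

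*Gli2*, the main activator, and *Gli3*, the main repressor, differed between libraries by less than their counting intervals in the mesenchyme. *Gli2* was at 13.3 CPM (290 UMIs) and 12.6 CPM (338 UMIs), a log2 ratio of -0.08, and *Gli3* was at 19.2 CPM (418 UMIs) and 20.6 CPM (554 UMIs), a ratio of 0.10. In progenitors *Gli2* was at 11.2 and 10.4 CPM (-0.11). *Gli3* was lower there in the mutant library, 15.4 CPM from 241 UMIs against 12.2 CPM from 188 UMIs, with a ratio of -0.34 (-0.62 to -0.06). The ratio was negative in both progenitor clusters. It was -0.48 (-0.94 to -0.03) on 98 and 72 UMIs in one. In the other it was -0.22 (-0.59 to 0.14) on 143 and 116 UMIs, an interval that includes 0. In RPE-like cells *Gli2* was at 13.8 and 14.7 CPM and *Gli3* at 11.4 CPM in both libraries. Of the 6 members measured in RPE-like cells none was past 1.5-fold, where 17.1% of 9729 genes were, and of the 4 measured in endothelial-like cells none was, where 11.9% of 8696 genes were. The median log2 ratio of the members measured was 0.11 in RPE-like cells, -0.02 in endothelial-like cells, -0.08 in mesenchyme and -0.06 in progenitors, beside -0.03, -0.06, -0.04 and -0.02 over all genes measured.

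*Gli3* was also counted in cells of neural crest origin outside the mesenchyme, at 20.1 and 18.6 CPM in melanocyte-like and 29.7 and 17.7 CPM in Schwann or neural crest-like cells, on 17 and 12 and on 9 and 10 UMIs. *Gli2* in ganglion cell-like cells had 14 control and 3 mutant UMIs, 5.16 and 0.893 CPM, levels whose intervals did not overlap, but the sum is under the 20 UMIs set for a ratio. Low counts of *Ptch1* and *Gli1* in small classes were likewise uncertain. Muscle-like cells had 1 and 10 *Ptch1* UMIs and 2 and 8 *Gli1* UMIs in 25 and 29 cells.

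Around the members, 46 genes of the pathway were followed in 5 lists, for ligand release, reception, transduction, targets and the primary cilium. In the mesenchyme 44 were measured, 2 were past 1.5-fold lower and 0 higher, and the median log2 ratio was -0.07, near the 5.61% of genes past the fold and the median of -0.04 over all genes there. The gene past that fold with an interval below 0 was *Foxf2*, a forkhead factor induced by Hedgehog in mesenchyme, at 16.5 CPM (358 UMIs) in control and 10.9 CPM (292 UMIs) in mutant, log2 ratio -0.60 (-0.83 to -0.37). It was also negative in female (-0.73), male (-0.63) and unassigned cells (-0.74) and within clusters (-0.49), where it was short of 1.5-fold. These are parts of the same libraries and not independent results. The other gene past the fold, the endocytic receptor *Lrp2*, had 18 and 14 UMIs. *Foxl1*, a related target, was at 16.0 and 12.2 CPM (-0.39, -0.61 to -0.16), and *Scube1*, which aids ligand release, at 45.4 and 36.8 CPM (-0.31, -0.44 to -0.18). *Hhat*, the acyltransferase of the ligands, was at 4.14 and 3.39 CPM (-0.29, -0.73 to 0.15). *Osr1*, a mesenchymal target, was at 42.3 and 44.5 CPM. The median of the 8 targets measured was -0.07. The 15 transduction and 12 cilium genes had none past the fold.

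In progenitors 40 list genes were measured and 1, *Osr1* on 16 and 7 UMIs, was past the fold, against 5.26% of all genes there, with a median of -0.02. *Lrp2*, here at 10.3 and 7.33 CPM (-0.49, -0.85 to -0.14), and the GLI-binding inhibitor *Sufu*, at 11.1 and 7.98 CPM (-0.47, -0.82 to -0.13), had intervals below 0 within 1.5-fold. *Hhat* was at 2.95 and 3.76 CPM (0.35, -0.23 to 0.94).

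RPE-like cells had 31 list genes measured, 6 lower and 0 higher past the fold, with a median of -0.12. Over all genes of the class 17.1% were past the fold, 10.6% lower and 6.54% higher, so a count of this size says little of the lists. Of the 6, the reception genes were *Gpc3* and *Lrp2*. *Gpc3*, a glypican that binds Hedgehog, was at 277 CPM (583 UMIs) and 177 CPM (265 UMIs), log2 ratio -0.64 (-0.86 to -0.43). *Lrp2* was at 22.4 CPM (47 UMIs) and 12.7 CPM (19 UMIs), a ratio of -0.77 (-1.67 to -0.02). The other 4 were cilium genes, of which *Bbs4* was at 13.8 and 5.35 CPM (-1.25, -2.71 to -0.20) while *Ift122*, *Ift140* and *Kif3b* had intervals that included 0. So did the ligand release gene *Scube3*, at 44.7 and 32.1 CPM. The 4 targets and 9 transduction genes measured had none past the fold. In endothelial-like cells 21 were measured, with *Sufu* (22 and 10 UMIs) and *Rab34* (24 and 10 UMIs) lower and *Tulp3*, a ciliary trafficking gene, higher at 14.4 and 27.8 CPM (0.92, 0.23 to 1.69), beside the 11.9% of all genes of the class past the fold. The ratios of *Arl13b* (-0.43), *Mycn* (-0.39) and *Prkaca* (-0.38) there had intervals that included 0. In ganglion cell-like cells *Mycn*, a proliferation factor among the targets, was at 112 CPM (304 UMIs) and 79.8 CPM (268 UMIs), log2 ratio -0.49 (-0.73 to -0.25), while *Ccnd2* (-0.47), *Ofd1* (0.42) and *Bbs4* (-0.37) had intervals that included 0.

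Genes with the pattern most like each member were ranked by Pearson r of log2(CPM + 5) over 28 points, the 14 classes in both libraries, among 12276 genes. Points of one library share its depth and free RNA and each class contributes a pair, so these are descriptions. *Ihh* was most like *Sox18*, *Sox17*, *Upp1*, *Myct1* and *Sox7*, each at an r of 0.99, of which the 3 *Sox* genes are endothelial transcription factors. *Gli1* was most like *Fras1* (0.93), *Lrp8os2*, *Ccdc106*, 6030419C18Rik and *Pdgfrl* (0.89), with *Ptch1* at 0.81 and *Boc* at 0.78. *Ptch1* was most like *Fzd1* (0.86), *Flywch2*, *Dbp*, *Col11a1* and *Rev3l* (0.82). For *Hhip* the nearest were *Bdh2* (0.95), *Pde1a*, *Inmt*, *Ogn* and *Slc16a9* (0.93), and for *Boc* they were *Nfatc4* (0.89), *Bicc1*, *Nbl1*, *Gata3* and *Armcx6* (0.84). The ranking of *Shh*, led by *Sst* (0.87), *Fam163a*, *Slc9b2*, *Tub* and *Th* (0.64), rests on 8 UMIs.

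In the annotation *Ptch1* overlaps A930032L01Rik, *Smo* overlaps Gm13717, *Gli3* overlaps Gm48343 and *Boc* overlaps Mir3081 on the same strand, so reads in the shared stretches cannot be given to one gene by position alone. *Shh*, *Gli1*, *Gli2*, *Gli3* and *Hhip* overlap other genes on the opposite strand.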

How the data were processed

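The authors deposited raw UMI counts per gene and barcode for 6039 control and 6754 mutant barcodes (63483835 and 75228861 UMIs), made with Cell Ranger 7.1.0 on mm10 per the labels, without normalization. Filters removed barcodes with fewer than 200 genes (5 control, 9 mutant), those above 15% mitochondrial UMIs (515 and 371) and doublets (51 and 74), called with Scrublet (scanpy 1.11.5, expected rate 0.05). Cells were integrated and clustered in Seurat 5.3.0 (R 4.3.3; 30 components, resolution 0.8) on 1993 of 2000 variable features, without the members and list genes. Clusters were named from markers, with thresholds set after the clusters had been seen.

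UMIs were summed per class and library and given as CPM. Ratios divide mutant by control after adding 1 UMI to both sums. The procedure was tested on simulated Poisson counts, as the intervals assume, so that test cannot check spread between cells or libraries. Shares of cells were also taken after thinning to 3000 UMIs. All 9 members are named, with up to 4 list genes per class of at least 50 UMIs by size of ratio, every list gene past 1.5-fold whose interval excludes 0, and the 5 genes most like each of 6 members. The other list genes past the fold, *Osr1* in the mesenchyme and the endothelial markers were named after their values were seen. The members and lists were chosen with earlier results of these data known. Where the study sets an upper limit of 2000 UMIs per cell, 1190 and 1096 kept cells remain, so it was run as an alternative. Sequences and positions are from RefSeq and GENCODE for GRCm38. Whether intronic reads were counted is not given in the sources used here. Later ages were not analysed here, and 1 list gene that the rule names is not reported here.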

Additional observations from a re-analysis of the deposited data

Results flagged for a closer look

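Across the 9 members and 4 classes compared, 54 pairs of ratios of the same gene in 2 classes were looked at, and 1 had opposite signs with intervals that did not overlap. The 54 include pairs with no UMI of the gene in a class in either library, such as *Shh* in mesenchyme-like cells. Such pairs have no interval and could not be flagged. *Ptch1* had a log2 ratio of mutant over control of -0.42 (-0.58 to -0.26) in mesenchyme-like cells and 0.18 (-0.18 to 0.54) in retinal progenitor-like cells. The interval in progenitors includes 0, and with 1 library per genotype the difference between the classes was not tested.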

How the results depend on the processing

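No paired analysis was possible because each genotype had 1 library. With no replicates, library preparation, embryos and genotype cannot be told apart, and depth limits *Shh* in every class and *Hhip* outside mesenchyme and RPE-like cells. Of 162 alternative values of 11 ratios, 154 stayed within the counting interval of the reported value and 8 moved beyond it, and 19 had the other sign. The intervals are wide, and 2 of the 11 ratios, both on few UMIs, were past 1.5-fold, so this says little of stability. With at most 2000 UMIs per cell, *Ihh* in endothelial-like cells was at -0.59, *Ptch1* at 0.52 in mesenchyme (3 UMIs in all) and 1.02 in RPE-like cells, and *Hhip* at -1.06 in mesenchyme (1 UMI). Several ratios had no UMI in either library under this limit and gave no value. Among female cells *Ihh* was at -1.31, and among male cells *Ihh* was at -0.45 and *Ptch1* in mesenchyme at -0.63. With at most 5% mitochondrial UMIs, *Gli1* in RPE-like cells was at -1.42. The cause was not tested, beyond the few UMIs given. *Ptch1* in mesenchyme kept its sign in 14 of 15 alternatives, *Gli1* and *Hhip* in mesenchyme in 15 of 15, *Hhip*, *Gli1* and *Ptch1* in RPE-like cells in 16, 13 and 12 of 16, and *Ihh* in 7 of 14. Thinned to 1500 UMIs, the control and mutant shares were 8.55% and 9.40% for endothelial *Ihh*, 3.97% and 3.40% for mesenchymal *Ptch1*, and 2.95% and 2.66% for *Gli1*. At 5000 UMIs they were 12.2% and 9.83% for *Ptch1* and 10.5% and 9.67% for *Gli1*. With a minimum of 50 UMIs, the list genes lower past the fold were 1 in mesenchyme, 0 in progenitors and 3 in RPE-like cells, and at 2-fold they were 0 in mesenchyme and 2 in RPE-like cells. With 1 CPM in place of 5 CPM added, 3 of the 5 nearest genes stayed for *Gli1*, *Ptch1* and *Hhip* and 2 for *Boc*. Leaving out shared barcodes, the ratios within clusters and 2 subsets of RPE-like cells, 1 of them counted above but not reported here, were chosen after seeing the data.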
